A study of Homo sapiens with 6 samples.

Results

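The enzymes that build, lengthen and desaturate fatty acids were examined as a group of 10 genes, SCD, SCD5, FASN, ACACA, ACLY, ELOVL1, ELOVL5, ELOVL6, FADS1 and FADS2, among the 58735 genes of the deposited count table. All 10 were found by symbol, and all 10 had enough counts to be among the 15294 genes tested. RNA was sequenced from 6 samples of KYSE410, a human oesophageal squamous carcinoma line: 3 samples with ADAR1 knocked down (siADAR1) and 3 controls. The controls, titled NC, are labelled wild type with no treatment, and no label says whether they received a non-targeting siRNA, so effects of siRNA delivery and off-target effects cannot be told apart from loss of ADAR1. All 6 samples come from 1 cell line, and no label gives the siRNA sequence, the time after transfection or separate cultures, so the spread between samples may be technical. The 10 genes were chosen by family name when the siADAR1 and control counts of these same libraries were already known. Their fold changes are therefore given as a description, without p-values for single members, and are not independent evidence of a direction.

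Fatty acid synthesis starts in the cytosol, where ACLY splits citrate to acetyl-CoA, ACACA carboxylates acetyl-CoA to malonyl-CoA, and the multi-domain enzyme FASN condenses these units into palmitate. ELOVL enzymes in the endoplasmic reticulum then lengthen the chain, while SCD and SCD5 place the first double bond in saturated chains and FADS1 and FADS2 add further double bonds to polyunsaturated ones. Transcription of most of these genes is known to be driven by the sterol-regulated factor SREBP-1, encoded by SREBF1, and many carcinomas express the pathway at high levels.

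Total counts were 16903792, 15175619 and 15203807 in siADAR1 replicates 1 to 3, against 17329443, 15497788 and 15834849 in control replicates 1 to 3. ADAR, the knockdown target, had 92.6, 95.6 and 77.5 CPM (reads per megaread of library size after TMM scaling) in siADAR1, against 454.8, 430.7 and 442.7 CPM in control. Both libraries numbered 1 stood apart from the others of their group. The first principal component placed siADAR1 replicate 1 at 60.5 and siADAR1 replicates 2 and 3 at 41.0 and 40.9. The second placed control replicate 1 at 36.1 and control replicates 2 and 3 at -19.6 and -13.3. Squamous markers were present in part. All 6 had counts in some library, with a summed level of 183.6 to 218.1 CPM in siADAR1 and 170.5 to 196.2 CPM in control, mostly from TP63, while KRT14 stayed at or below 0.113 CPM in every library. Within that sum single markers lay apart in opposite directions. TP63 had 154.7, 181.5 and 184.6 CPM in siADAR1, against 110.1, 134.6 and 128.0 CPM in control, whereas KRT6A had 4.22, 7.82 and 4.76 CPM in siADAR1, against 29.4, 24.1 and 25.3 CPM in control. KRT5 had 19.5, 24.7 and 25.7 CPM in siADAR1, against 27.3, 33.8 and 40.6 CPM in control. SOX2 was scarce, at 2.65, 2.29 and 2.03 CPM in siADAR1, against 0.784, 1.88 and 1.05 CPM in control. TP63, KRT6A, KRT5 and SOX2 did not overlap between the groups, and their part in the results was not tested. Of all tested genes, 29.7% lay lower in siADAR1 without overlap. Of 13 markers of fibroblasts, leukocytes, endothelium, liver or fat, DCN, CD3E, LYZ and ADIPOQ had 0 counts in every library. The fibroblast list summed to 20.2 to 24.7 CPM in siADAR1 and 12.0 to 18.9 CPM in control, nearly all of it COL1A1, and its part in the results was not tested. In such bulk samples, fewer cells of a type and less RNA per cell cannot be told apart.

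Promoter windows of 300 bases, 250 before to 50 after the annotated start, were available from RefSeq (GRCh38.p14) for 9 of the 10 genes, in 13 windows. FASN had no entry. The windows of SCD and SCD5 are shown because these paralogs differed most in their fold change. Those of FADS1 and FADS2 are shown because their RefSeq starts lie close together on opposite strands. Both FADS windows lie inside the genes as counted, which start farther out, at base 61829318 for FADS1 and base 61792980 for FADS2. Capitals mark CCAAT (the CCAAT box, bound by NF-Y) and GGGCGG (the GC box, bound by SP1) on either strand, where the reverse complements read ATTGG and CCGCCC.
SCD, chr10:100346983-100347282, plus strand: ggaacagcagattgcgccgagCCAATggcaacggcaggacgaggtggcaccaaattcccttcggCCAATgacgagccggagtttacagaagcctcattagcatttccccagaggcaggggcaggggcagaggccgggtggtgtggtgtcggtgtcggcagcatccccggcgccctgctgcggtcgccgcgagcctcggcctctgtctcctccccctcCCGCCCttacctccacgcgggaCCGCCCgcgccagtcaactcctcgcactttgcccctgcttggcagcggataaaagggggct
SCD5, chr4:82798747-82799046, minus strand: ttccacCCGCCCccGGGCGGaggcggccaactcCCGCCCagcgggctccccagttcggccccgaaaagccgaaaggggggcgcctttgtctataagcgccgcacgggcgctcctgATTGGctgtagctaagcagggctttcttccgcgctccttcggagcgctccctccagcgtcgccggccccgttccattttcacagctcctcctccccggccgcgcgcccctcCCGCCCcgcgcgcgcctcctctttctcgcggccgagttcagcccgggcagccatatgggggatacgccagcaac
FADS1, chr11:61816954-61817253, minus strand: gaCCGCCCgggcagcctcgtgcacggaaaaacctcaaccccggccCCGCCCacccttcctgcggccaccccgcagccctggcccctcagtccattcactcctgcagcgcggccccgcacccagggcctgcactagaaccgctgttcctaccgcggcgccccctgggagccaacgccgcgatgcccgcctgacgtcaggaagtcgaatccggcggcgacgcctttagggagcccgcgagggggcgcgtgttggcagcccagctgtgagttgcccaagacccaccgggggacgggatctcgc
FADS2, chr11:61816154-61816453, plus strand: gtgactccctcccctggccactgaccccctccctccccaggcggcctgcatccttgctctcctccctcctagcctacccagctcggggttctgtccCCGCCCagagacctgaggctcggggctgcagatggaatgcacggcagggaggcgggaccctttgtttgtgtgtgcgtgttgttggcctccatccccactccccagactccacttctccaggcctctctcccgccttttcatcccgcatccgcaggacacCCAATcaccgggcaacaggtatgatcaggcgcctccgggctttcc

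The SCD window held 2 CCAAT boxes, at bases -229 and -186 from the start, and 2 GC boxes. The SCD5 window held 1 CCAAT box, at -135, and 4 GC boxes. CCAAT stood in 9 of the 13 windows, from 7 genes, against 34.6% of all 35116 windows of this length. GGGCGG stood in 10 of the 13 windows, from 8 genes, against 45.0% of all windows, so both motifs are common in promoters at large. The window counts are not of independent sequence, since the 2 ACLY windows overlap and hold the same boxes, and the 2 FADS2 windows overlap too. A gene with several windows had more chances of a match, so the counts of genes cannot be set against the shares of windows. The E-box CACGTG, which overlaps neither motif, was found in the ELOVL5 window alone of these 13, against 7.26% of all windows. A form of the sterol regulatory element, TCACNCCAC searched on both strands, had no match in the 13 windows and a match in 1.13% of all windows. A match is only a run of letters, and no match says only that these letters are not in this window. The RefSeq start of FADS1 lay 599 bases from the start in the FADS2 window shown and 800 bases from that of the other FADS2 window.

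All 10 genes had a lower mean in siADAR1 than in control, by 1.08-fold to 5.48-fold. SCD5 stood out with a level 18.3% of control, while 8 others lay between 59.9% and 78.8% of control, and ACACA at 93.0%. By the test across all genes (edgeR quasi-likelihood, Benjamini-Hochberg adjusted p below 0.05), 9 of the 10 were called lower, where 25.0% of all tested genes were, and 0 were called higher, where 26.0% of all tested genes were. Of the 4743 tested genes averaging 50 CPM or more, which is the range of 8 of the 10, 38.2% were called lower. The siADAR1 libraries lay below all controls, without overlap, for the same 9 genes, against 29.7% of all tested genes. Because this contrast was known when the genes were chosen, nothing further is read from these shares. The median log2 fold change of the 10 was -0.54, beside 0.00 for all tested genes.

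**Figure D1:**
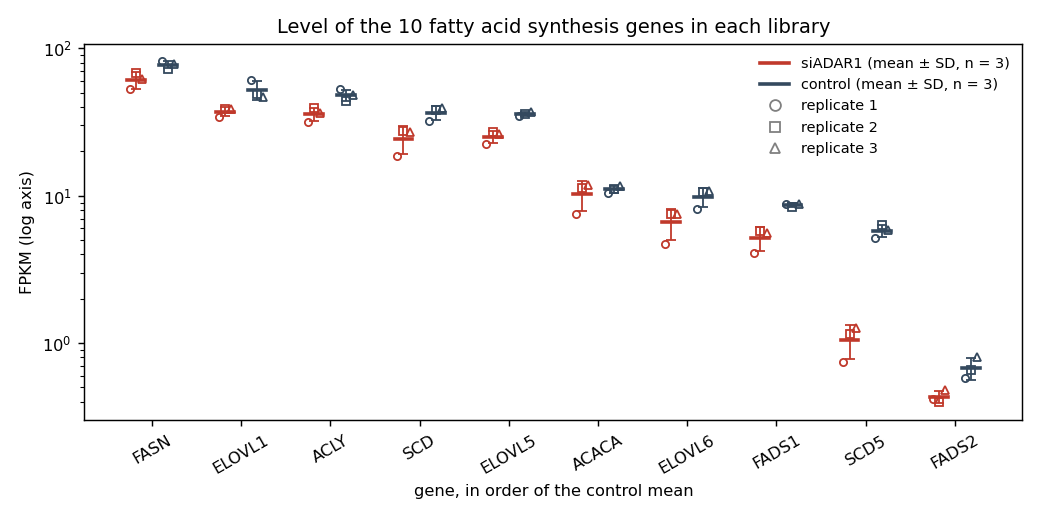
Level of each of the 10 genes in FPKM (log axis), siADAR1 in red and control in dark blue; symbols are the 3 replicates of each group, thick lines the means and bars the SD. The siADAR1 points lie below the control points for 9 genes, and those of ACACA overlap.

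Levels can be compared between genes only per length, and the deposited FPKM serve for that. These are fragments per kilobase of exon, scaled for library depth and by a library factor described below. FASN was the most abundant, at 61.0 ± 7.69 FPKM in siADAR1 and 77.7 ± 4.39 FPKM in control (mean ± SD, n = 3 each, as for all FPKM and CPM means below). ELOVL1 and ACLY came next, at 37.2 ± 2.58 and 35.8 ± 3.81 FPKM in siADAR1 and 52.5 ± 7.89 and 48.1 ± 4.49 FPKM in control, and these neighbours differed by less than their spread. ELOVL5 and SCD were likewise within their spread of each other, at 25.2 ± 2.50 and 24.4 ± 5.12 FPKM in siADAR1 and 35.8 ± 0.986 and 36.6 ± 3.98 FPKM in control. ACACA, ELOVL6 and FADS1 followed, at 10.2 ± 2.36, 6.59 ± 1.60 and 5.15 ± 0.942 FPKM in siADAR1 and 11.0 ± 0.622, 9.84 ± 1.43 and 8.63 ± 0.253 FPKM in control. SCD5, at 1.06 ± 0.279 FPKM in siADAR1 and 5.79 ± 0.554 FPKM in control, and FADS2, at 0.432 ± 0.0402 FPKM in siADAR1 and 0.679 ± 0.114 FPKM in control, were lowest. The order of the group means was the same in both groups except that SCD and ELOVL5 changed places. The summed level of the 10 was 177.2, 226.8 and 217.6 FPKM in siADAR1, against 296.0, 276.7 and 287.1 FPKM in control. FASN made up 29.5% ± 0.748 of that sum in siADAR1 and 27.1% ± 0.634 in control. The lengths behind these FPKM are unions of all annotated exons, which were 3.04 times the longest coding transcript for FADS2, 2.26 times for FADS1 and 1.00 to 1.54 times for the other 8, so the FADS levels are placed lower than per-transcript lengths would place them. This does not touch a fold change.

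Of the enzymes that make palmitate, ACLY and FASN were called lower and ACACA was not. ACLY, which supplies cytosolic acetyl-CoA, had 167.7, 207.5 and 191.7 CPM in siADAR1, against 277.7, 229.9 and 251.9 CPM in control. The groups did not overlap, and the log2 fold change was -0.42 ± 0.10 (SE). FASN had 499.4, 643.1 and 590.9 CPM in siADAR1, against 771.9, 688.2 and 739.1 CPM in control, again without overlap. Its log2 fold change of -0.34 ± 0.10 (SE) was the smallest of the 9 called. ACACA, which commits carbon to the pathway, had 98.7, 149.3 and 155.6 CPM in siADAR1, against 136.7, 144.6 and 152.7 CPM in control. Here only siADAR1 replicate 1 lay below the controls and siADAR1 replicate 3 lay above them all. The log2 fold change of -0.11 ± 0.15 (SE) did not pass, and it was 0.08 without siADAR1 replicate 1 and 0.01 with library totals alone, so no direction is given for ACACA. The ratio of ACACA to ACLY on the FPKM scale was 0.236, 0.289 and 0.326 in siADAR1, against 0.197, 0.252 and 0.243 in control, with overlap between the groups.

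All 3 elongases were called lower, where 25.0% of all tested genes and 38.2% of those averaging 50 CPM or more were. Differences among the elongases were not tested. ELOVL1, which lengthens saturated and monounsaturated chains to very long ones, had 86.7, 97.7 and 98.7 CPM in siADAR1, against 155.4, 124.7 and 117.6 CPM in control, a log2 fold change of -0.49 ± 0.11 (SE). Control replicate 1 was the highest here, and without both libraries numbered 1 the log2 fold change was -0.30. ELOVL5, the elongase of polyunsaturated chains, had 86.0, 103.8 and 101.7 CPM in siADAR1, against a narrow 134.4, 137.1 and 141.7 CPM in control, a log2 fold change of -0.50 ± 0.09 (SE). ELOVL6, which extends palmitate to stearate, had 35.0, 55.2 and 55.7 CPM in siADAR1, against 60.3, 77.9 and 78.9 CPM in control, a log2 fold change of -0.57 ± 0.17 (SE). In both groups replicate 1 was the lowest library for ELOVL6, and the call was lost without control replicate 2 or control replicate 3. ELOVL6 made up 7.73%, 10.3% and 10.4% of the FPKM of these 3 elongases in siADAR1, against 7.83%, 11.1% and 11.4% in control, so its share overlapped between the groups.

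The stearoyl-CoA desaturases parted in size. SCD (ENSG00000099194, chromosome 10, 100347124 to 100364834, GRCh38), the main form in most tissues, had 100.3, 148.9 and 148.1 CPM in siADAR1, against 173.6, 204.9 and 214.4 CPM in control. No siADAR1 library reached a control, and the log2 fold change was -0.58 ± 0.14 (SE), or -0.41 without siADAR1 replicate 1. SCD5 (ENSG00000145284, chromosome 4, 82629539 to 82798857), a paralog absent from mouse and rat, had 57, 79 and 87 counts in siADAR1, against 374, 406 and 386 counts in control. On the scaled libraries that was 3.21, 5.02 and 5.52 CPM in siADAR1, against 22.6, 27.3 and 25.3 CPM in control. Every control library was thus more than 4 times the highest siADAR1 library. The log2 fold change of SCD5 was -2.46 ± 0.19 (SE), at rank 7 from the lowest of the 15294 tested genes, and ADAR itself stood at rank 13 with -2.32 ± 0.09 (SE). Without siADAR1 replicate 1 the SCD5 log2 fold change was -2.25. Over the alternatives it ran from -2.60 without siADAR1 replicate 3 to -1.73 on log2 FPKM with a pseudocount of 1. SCD5 made up 3.84%, 4.04% and 4.45% of the summed SCD and SCD5 FPKM in siADAR1, against 14.0%, 14.3% and 12.9% in control. SCD exceeded SCD5 by 25.0, 23.7 and 21.5 times in siADAR1, against 6.16, 6.01 and 6.78 times in control, with no overlap and little spread within a group. The summed level of both was 25.5 ± 5.39 FPKM in siADAR1 and 42.4 ± 4.43 FPKM in control. The processed pseudogene SCDP1 had 0 counts in every library.

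**Figure D2:**
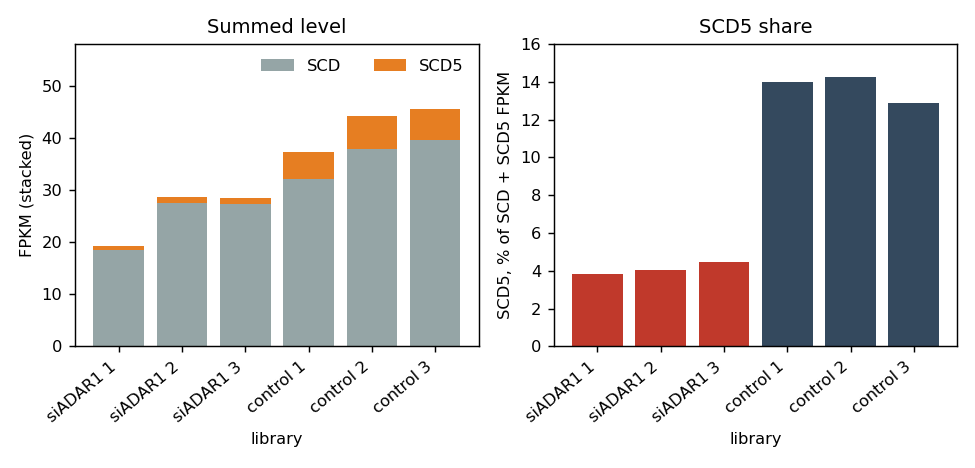
Left, FPKM of SCD and SCD5 stacked for each library; right, SCD5 as a percentage of the summed FPKM of both, with siADAR1 in red and control in dark blue. SCD5 holds 3.84% to 4.45% in siADAR1 and 12.9% to 14.3% in control.

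FADS1 and FADS2, the front-end desaturases of polyunsaturated synthesis, lie on opposite strands of chromosome 11 and overlap in the annotation that matches the deposited coordinates. FADS1 (61799625 to 61829318) had 42.0, 59.9 and 57.8 CPM in siADAR1, against 90.9, 85.9 and 90.0 CPM in control. All siADAR1 libraries were below all controls, with a log2 fold change of -0.74 ± 0.12 (SE), the second lowest of the 10. FADS2 (61792980 to 61867354) had only 83, 70 and 84 counts in siADAR1, against 107, 108 and 136 counts in control. These were 4.67, 4.45 and 5.33 CPM in siADAR1, against 6.45, 7.25 and 8.92 CPM in control, and the log2 fold change was -0.65 ± 0.20 (SE). The FADS2 call was lost without siADAR1 replicate 2, without control replicate 3 and on log2 FPKM, where the log2 fold change was -0.54 with a pseudocount of 0.1 and -0.23 with a pseudocount of 1. FADS1 and FADS2 share 490 exonic bases, or 4.79% of the exonic length of FADS1 and 4.44% of that of FADS2, and FADS2 shares a further 49 with FEN1, a replication nuclease gene with 8894 counts over the 6 libraries. No source used here says that counting used the strand, so reads in the shared bases cannot be told apart, and the FADS2 level is uncertain. Among the other 8 genes, exonic bases were shared with annotated genes by ACLY and ELOVL1 alone, and those partners had 0 counts.

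**Figure D3:**
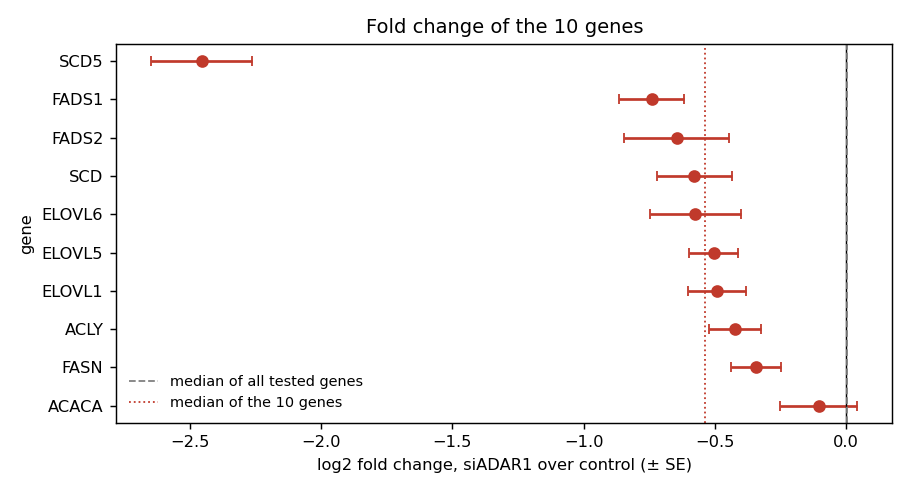
Log2 fold change of each gene, siADAR1 over control, with its SE; the dotted line marks the median of the 10 genes (-0.54) and the dashed line that of all tested genes (0.00). SCD5 lies at -2.46, 8 genes lie between -0.74 and -0.34, and ACACA is nearest to 0.

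The libraries numbered 1 bear on the size of these differences. Within siADAR1, replicate 1 had the lowest CPM for 9 of the 10 genes, FADS2 being the exception, and the highest for 0. How often it was the lowest over all tested genes was not counted, so this is not read as particular to the 10. Within control, replicate 1 was the lowest for 6 genes and the highest for 4. With siADAR1 replicate 1 left out, 9 genes were still called lower and the median of the 10 was -0.42. With both libraries numbered 1 left out, 9 were called lower and the median was -0.47. FASN was then at -0.21 and ACLY at -0.27.

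Of 13 tested regulators of lipogenic transcription, 6 were called higher, 3 lower and 4 neither, against 26.0% higher and 25.0% lower over all genes. Their median log2 fold change was 0.00, the same to 2 decimals as that of all tested genes. SREBF1, which encodes SREBP-1, had 125.4, 140.0 and 140.5 CPM in siADAR1, against 102.2, 117.1 and 109.0 CPM in control, so every siADAR1 library was higher. It rose by 0.31 ± 0.09 (SE) on the log2 scale with an edgeR adjusted p of 0.0120. The SREBF1 adjusted p was 0.0567 without siADAR1 replicate 2 and 0.0520 without siADAR1 replicate 3, within a range of 2.81e-04 to 0.0567 over the alternatives. SREBF2, the factor for sterol genes, had 94.6 ± 2.34 CPM in siADAR1 and 94.6 ± 12.0 CPM in control, and SCAP, the escort of both factors, had 118.2 ± 6.97 CPM in siADAR1 and 119.5 ± 3.39 CPM in control. INSIG1, which holds SCAP in the endoplasmic reticulum, had 40.9, 22.3 and 20.1 CPM in siADAR1, against 12.8, 8.46 and 8.85 CPM in control. INSIG1 rose by 1.47 ± 0.29 (SE), with an edgeR adjusted p of 2.43e-03, and siADAR1 replicate 1 was far above the other siADAR1 libraries. MID1IP1, which promotes polymerisation of acetyl-CoA carboxylase, rose by 0.75 ± 0.09 (edgeR adjusted p = 3.01e-05). The sugar-responsive factor MLXIP (MondoA) rose by 0.62 ± 0.10 and the oxysterol receptor NR1H2 (LXR beta) by 0.58 ± 0.10, with edgeR adjusted p of 1.69e-04 and 4.55e-04. MLXIPL, the paralog of MLXIP, went the other way, with a log2 fold change of -0.72 ± 0.21 (SE, edgeR adjusted p = 0.0125). It was scarce, at 4.84 ± 0.952 CPM in siADAR1 and 8.01 ± 1.30 CPM in control. MBTPS1, the first protease to cleave SREBPs, fell by 0.49 on the log2 scale (SE 0.11, edgeR adjusted p = 2.82e-03).

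Among 21 other tested enzymes of synthesis, elongation and desaturation, 10 were called lower, 4 higher and 7 neither. Over all tested genes 25.0% were called lower and 26.0% higher. The median log2 fold change of the 21 was -0.23. The number that rose was 2 without siADAR1 replicate 1 and 2 without control replicate 3. ACACB, the mitochondrial partner of ACACA that restrains fatty acid oxidation, had 3.04, 3.88 and 3.11 CPM in siADAR1, against 7.18, 6.38 and 7.80 CPM in control. ACACB fell by 1.09 on the log2 scale (SE 0.21, edgeR adjusted p = 7.71e-04), where ACACA overlapped between the groups, but the difference between these paralogs was not tested. Of the enzymes that work with every ELOVL in the elongation cycle, TECR, the last reductase, had 65.5, 82.4 and 85.7 CPM in siADAR1, against 126.9, 121.9 and 118.0 CPM in control. The fold change of TECR was -0.65 ± 0.11 (log2, SE) and that of the dehydratase HACD3 was -0.74 ± 0.11, with edgeR adjusted p of 2.23e-04 and 9.61e-05. Of the other dehydratase genes, HACD1 rose by 0.32 ± 0.11 (SE, edgeR adjusted p = 0.0259). HACD2 had 161.7 ± 5.69 CPM in siADAR1 and 179.9 ± 6.16 CPM in control, and did not pass. The reductase HSD17B12 had 57.8 ± 2.57 CPM in siADAR1 and 56.0 ± 1.32 CPM in control, and the elongase ELOVL7 had 28.5 ± 0.914 CPM in siADAR1 and 31.0 ± 2.27 CPM in control, and neither passed. CYB5B, a cytochrome b5, fell by 0.65 on the log2 scale (SE 0.09, edgeR adjusted p = 1.05e-04). FADS3, a desaturase of sphingoid bases next to FADS1 and FADS2, had 48.6, 37.6 and 40.9 CPM in siADAR1, against 34.0, 29.4 and 29.2 CPM in control, and rose by 0.46 ± 0.12 (SE, edgeR adjusted p = 7.09e-03). The sources of NADPH for synthesis parted. ME1, the cytosolic malic enzyme, had 501.7, 400.2 and 404.4 CPM in siADAR1, against 261.3, 229.1 and 223.5 CPM in control, and rose by 0.87 ± 0.10 (SE, edgeR adjusted p = 1.68e-05). PGD of the pentose phosphate pathway had 145.1, 165.6 and 163.6 CPM in siADAR1, against 365.1, 275.9 and 278.3 CPM in control, a log2 fold change of -0.96 ± 0.11 (SE, edgeR adjusted p = 1.63e-05).

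**Figure D4:**
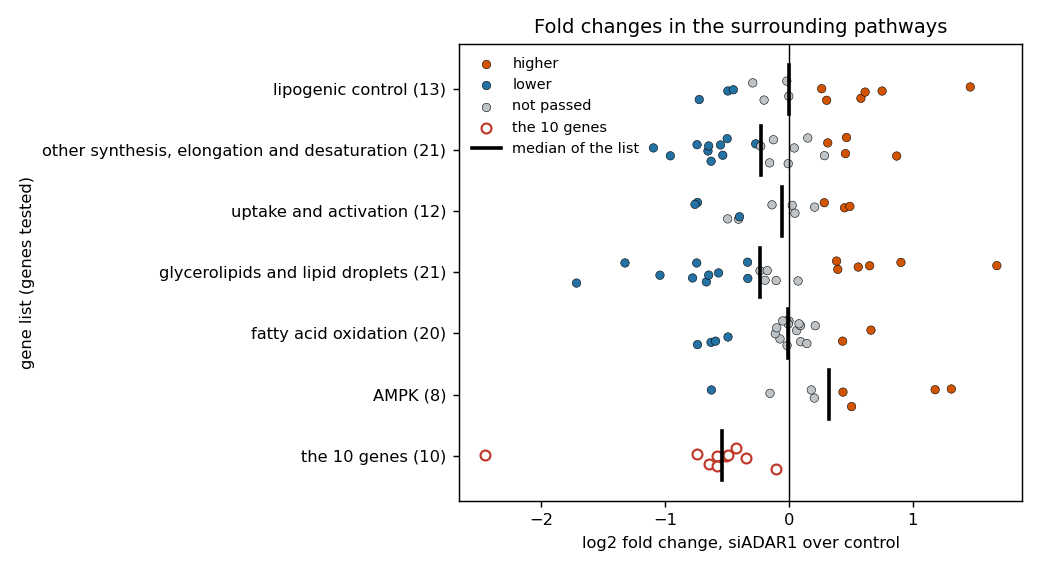
Log2 fold change, siADAR1 over control, of each tested gene in 6 lists around the pathway and of the 10 genes (open circles); orange points rose, blue points fell and grey points did not pass, and black bars are list medians. The medians are -0.54 for the 10 genes, -0.23 for the other synthesis enzymes and 0.32 for AMPK.

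In glycerolipid synthesis and lipid droplets, 10 of 21 tested genes were called lower, 6 higher and 5 neither. The shares over all tested genes were 25.0% lower and 26.0% higher. The median log2 fold change of the 21 was -0.23. The acyltransferases AGPAT5, GPAT4 and AGPAT1, which attach fatty acids to the glycerol backbone, had log2 fold changes of -0.78 ± 0.08, -0.74 ± 0.09 and -1.04 ± 0.13 (SE), with edgeR adjusted p of 6.01e-06, 1.79e-05 and 3.07e-05. Of the other acyltransferases in the list, GPAM, GPAT3, AGPAT2, AGPAT3 and DGAT1 were also called lower. AGPAT4 and DGAT2 went the other way, rising by 0.56 ± 0.13 and 0.40 ± 0.09 (SE), with edgeR adjusted p of 2.41e-03 and 2.18e-03. PNPLA3, a lipid droplet protein known as a target of SREBP-1, had 51.8, 45.1 and 46.6 CPM in siADAR1, against 14.2, 13.6 and 17.0 CPM in control, and rose by 1.68 ± 0.12 (SE, edgeR adjusted p = 5.30e-07). Any link between the rise of PNPLA3 and the levels of the 10 synthesis genes was not tested.

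Of 12 tested uptake and activation genes, 3 were called higher, 3 lower and 6 neither, shares close to the 26.0% higher and 25.0% lower of all tested genes. The list median was -0.05 on the log2 scale. The number that rose was 1 without siADAR1 replicate 3 and 1 without control replicate 2. FABP5 and DBI, cytosolic carriers of fatty acids and acyl-CoA, had log2 fold changes of -0.74 ± 0.10 and -0.76 ± 0.12 (SE), with edgeR adjusted p of 7.32e-05 and 1.90e-04. The acyl-CoA synthetase ACSL3 rose by 0.49 ± 0.11 (edgeR adjusted p = 2.14e-03). The transporter SLC27A2 rose by 0.45 ± 0.13 (edgeR adjusted p = 0.0125), with 0.0756 without siADAR1 replicate 3 and 0.0531 without control replicate 2, within a range of 7.28e-05 to 0.0756.

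Genes of fatty acid oxidation mostly did not pass, where 7491 of all 15294 tested genes did not. The calls among 20 tested were 4 lower, 2 higher and 14 neither, beside 25.0% lower and 26.0% higher over all genes. The median of the 20 was -0.01 (log2). With library totals alone 4 rose. CPT1A, the gate for entry of acyl chains into mitochondria, had 83.8, 97.0 and 99.9 CPM in siADAR1, against 146.4, 151.4 and 135.7 CPM in control, and a log2 fold change of -0.63 ± 0.09 (SE, edgeR adjusted p = 1.20e-04). The thiolase ACAA2 and the dehydrogenase HADH had log2 fold changes of -0.74 ± 0.11 and -0.49 ± 0.10, and the peroxisomal thiolase ACAA1 rose by 0.44 ± 0.09, with edgeR adjusted p of 9.08e-05, 1.27e-03 and 1.03e-03.

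AMPK, the kinase that phosphorylates and inhibits both acetyl-CoA carboxylases, is built of several subunits and switched on by upstream kinases. Of the 8 genes tested for these, 4 were called higher, 1 lower and 3 neither, beside 26.0% higher and 25.0% lower over all genes. The median log2 fold change of the 8 was 0.32. PRKAB2, a beta subunit, had 124.0, 119.5 and 107.0 CPM in siADAR1, against 51.9, 50.7 and 51.8 CPM in control, and rose by 1.18 ± 0.09 (SE, edgeR adjusted p = 7.34e-07). PRKAA2, a catalytic subunit, rose by 1.31 ± 0.19, with 20.6, 18.7 and 19.2 CPM in siADAR1, against 5.55, 9.54 and 8.52 CPM in control (edgeR adjusted p = 7.56e-05). The other catalytic subunit gene, PRKAA1, had 149.8 ± 5.06 CPM in siADAR1 and 166.3 ± 14.4 CPM in control. Its log2 fold change of -0.15 ± 0.09 (SE) did not pass. The beta subunit gene PRKAB1 rose by 0.51 ± 0.12 (edgeR adjusted p = 3.41e-03). CAMKK2, an upstream kinase, had a log2 fold change of -0.62 ± 0.11 (edgeR adjusted p = 3.28e-04), the single fall of this list, and without control replicate 1 the list had 2 falls. RNA levels do not measure the phosphorylation of ACACA or ACACB, the cleavage of SREBPs, or the amount of lipid.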

How the data were processed

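Polyadenylated RNA from 3 siADAR1 and 3 control samples was measured. The submitters' processing notes list HISAT2 2.0.5, fastp and CASAVA without saying what each did. Which tool counted the reads, on which build and annotation, is not given in the sources used here. The coordinates of all 58735 genes equalled those of GENCODE release 29 (GRCh38). The deposited counts are whole reads per gene, without normalization, per the file headers and values. The deposited FPKM equalled counts over gene length and 0.966 to 1.06 times the count total, as worked out here from counts, lengths and FPKM. This library factor was 1.05 to 1.06 in siADAR1 and 0.966 to 0.970 in control. It lay close to the TMM factors, 1.04 to 1.05 in siADAR1 and 0.957 to 0.963 in control. The fits on FPKM are therefore no separate check of the scaling. The authors' group means were not used.

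Counts were fitted in R 4.3.3 with edgeR 4.0.16 (filterByExpr, minimum count 10; TMM; robust quasi-likelihood F test on group; two-sided; Benjamini-Hochberg over all 15294 tested genes; threshold 0.05). The SE is the log2 fold change over the square root of F. Alternatives used DESeq2 1.42.0, limma 3.58.1 (voom, or trend on log2 FPKM with a pseudocount of 0.1 or 1 and a mean of at least 0.5), other scaling and filters, the replicate number as a block, and each library left out. No 2 libraries of a group agreed within sampling noise (chi-square per degree of freedom 4.15 to 19.9). All labels carry 1 batch value. Intervals between samples reflect 3 libraries per group.

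The 10 genes and the 6 surrounding lists, which were taken from pathway membership and exclude the 10, were chosen with earlier results of these data known. Genes named were ADAR, the 10, SREBF1, SREBF2, SCAP, INSIG1, ACACB, ELOVL7, FADS3, HSD17B12, TECR and, per list, up to 4 others with the smallest p among those that passed. Also named were PRKAA1, HACD1, HACD2, MLXIPL, GPAM, GPAT3, AGPAT2, AGPAT3, AGPAT4, DGAT1 and DGAT2, as relatives of genes named by this rule.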

Additional observations from a re-analysis of the deposited data

How the results depend on the processing

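Under all 16 alternatives, the count of the 10 genes called lower was 7 to 9 and 0 were called higher. Leaving out 1 library at a time gave 7 to 9 called lower, 7 of them without control replicate 3, where ELOVL6 and FADS2 lost the call. SCD, SCD5, ACLY, ELOVL1, ELOVL5 and FADS1 kept direction and call under all 16, FASN lost its call with library totals alone, at -0.23, and ACACA reversed to 0.010 with library totals alone, 0.076 without siADAR1 replicate 1 (from -0.22 to 0.076 with 1 library left out) and 0.035 without both libraries numbered 1, the last chosen after seeing the data. Library totals alone moved the median log2 fold change of all genes to 0.12 and that of the 10 to -0.42, a shift shared by both, and gave 4 oxidation genes higher. SREBF2 and SCAP, neither called, crossed 0. SREBF2 was at -0.0015 with relative log expression size factors and -0.0016 with DESeq2, -0.0011 without a filter on low counts, -0.0093 without siADAR1 replicate 1, -0.01 without siADAR1 replicate 2, -0.034 without control replicate 2 and -0.081 without control replicate 3, and SCAP at 0.10 with library totals alone, 0.028 without siADAR1 replicate 1 (from -0.060 to 0.028 with 1 library left out) and 0.047 without both libraries numbered 1. Leaving out 1 library at a time, 2 to 4 other synthesis genes rose, 1 to 3 uptake genes rose and 1 to 2 AMPK genes fell, with 2 AMPK genes lower also without both libraries numbered 1. On log2(FPKM + 1), the PRKAA2 log2 fold change was 0.75, a scale that understates changes of low genes. The causes of the other shifts were not tested.

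The replicate numbers are not stated to mark a shared culture. Deviations of same-numbered libraries from their group means correlated at 0.251, 0.0844 and 0.106 across genes, for numbers 1, 2 and 3. By the 0.251, the libraries numbered 1 deviated in part alike. Pairs of unlike number that held a replicate 1 gave -0.130, -0.169, -0.148 and -0.145. Deviations from a group mean cancel out within the group, so negative values there follow from the 0.251 and add no separate support. Numbers 2 and 3 were not told apart, since control replicate 2 correlated best with siADAR1 replicate 3, at 0.0917. As no label states a pairing, the main fit left the number out and an alternative used it as a block. With the replicate number as a block, 9 of the 10 genes were called lower, and over all genes 4396 were higher and 4185 lower, against 3973 and 3830 without the block. At 70 to 136 counts per library FADS2 is the least precise of the 10.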
